A study of Mus musculus with 13 samples.

Results

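The genes described here encode the protein subunits of the cytosolic ribosome. They were chosen by symbol, as the gene rows named Rpl or Rps with a number and at most one of the suffix letters a, x, y or l, together with Rpsa, Rplp0, Rplp1 and Rplp2. The rule found 81 of 23951 gene symbols, 49 of the large and 32 of the small subunit, in each of 2 deposited tables. RNA sequencing was done on whole mammary glands of mouse females at day 7 of lactation and at day 2 of involution, the regression of the gland after suckling ends. The groups were 3 wildtype control and 3 conditional Jak1 knockout glands at lactation, and 3 wildtype control and 4 conditional Jak1 knockout glands at involution. JAK1 is a tyrosine kinase that passes on cytokine signals, and the study asked what it contributes to cytokine signalling and remodelling of the gland. The promoter that drives the deletion, the cells it reaches, the strain and the age of the mice are not stated in the labels. Libraries carry the numbers of the mice. They are M42186, M43768 and M44175 (control) and M44174, M42734 and M43767 (knockout) at lactation, and M44448, M43768 and M43914 (control) and M43196, M43767, M44176 and M44440 (knockout) at involution. The numbers M43768 and M43767 occur at both stages, and whether they are the same mice is not given.

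Each ribosome joins a small subunit, which reads the mRNA, to a large subunit, which forms the peptide bonds, and every subunit carries ribosomal RNA and a fixed set of proteins. Because the proteins are needed in equal numbers, their mRNAs are abundant, short and usually rise and fall together. Most begin with a C followed by a run of pyrimidines, the 5′ terminal oligopyrimidine (TOP) tract, through which the kinase mTOR controls their translation. The lactating gland makes milk protein at a high rate and is rich in ribosomes.

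The start sites are shown first as a description of the set, and such a run was found in a minority of the entries matched. RefSeq start sites (build GRCm38.p6, a later build than the mm9 of the deposited files) matched 60 of the 81 genes by symbol, with 72 entries. A run of at least 6 C or T letters on the sense strand that holds the first transcribed base, with a C there or within 3 bases of it, occurred in 19 of 72 entries (26.4%), against 7.07% of all 32851 entries. The mirror run of A or G letters occurred in 6.94% of the entries of these genes and 11.3% of all. Below are 15 bases before and 15 bases from the annotated start of 8 genes with the run, shown as examples. They are written 5′ to 3′ along the gene, with the run in capitals. They are ordered by how far the gene stood above the other lactation libraries in control M44175, from the least (Rpl28, log2 difference 0.25) to the most (Rps18, 1.93). The order is for display, and that library is described further on, with medians for genes with and without the run.
Rpl28, chr7:4792950-4792979, plus strand: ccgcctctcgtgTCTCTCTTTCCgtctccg
Rpl38, chr11:114668565-114668594, plus strand: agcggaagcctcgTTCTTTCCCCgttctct
Rplp2, chr7:141447636-141447665, plus strand: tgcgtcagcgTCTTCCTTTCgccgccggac
Rpl14, chr9:120571502-120571531, plus strand: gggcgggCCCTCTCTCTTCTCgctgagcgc
Rps9, chr7:3704026-3704055, plus strand: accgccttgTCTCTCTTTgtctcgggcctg
Rps10, chr17:27635230-27635259, minus strand: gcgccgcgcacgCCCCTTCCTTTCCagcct
Rpl35, chr2:39005117-39005146, minus strand: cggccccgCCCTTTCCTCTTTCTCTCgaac
Rps18, chr17:33955651-33955680, minus strand: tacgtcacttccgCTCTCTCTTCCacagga
The runs of these 8 genes were 9 to 18 letters long.

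Upstream, CCGGAAG, the core letters bound by ETS factors such as GABPA, stood on either strand within the 300 bases from 250 before to 50 after the start in 36.1% of the entries of these genes, against 8.86% of all entries. AAGATGG, the core letters bound by YY1, stood on either strand in 15.3% against 6.34%. Both occurred in 2 entries of these genes and overlapped in 0 of them. TATAAA at 20 to 40 bases before the start occurred in 0 of 72 entries, against 1.99% of all. The stretches of 60 bases before the start of Rpl37, Rpl38, Rps7 and Rpl41, 4 of 5 genes with the ETS letters in that stretch, are given with those letters in capitals, on whichever strand they lie.
Rpl37, chr15:5116553-5116612, plus strand: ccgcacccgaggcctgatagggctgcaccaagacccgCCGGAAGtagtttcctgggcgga
Rpl38, chr11:114668520-114668579, plus strand: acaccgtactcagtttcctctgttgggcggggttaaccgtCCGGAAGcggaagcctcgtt
Rps7, chr12:28635954-28636013, minus strand: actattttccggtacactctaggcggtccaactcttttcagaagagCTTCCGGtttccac
Rpl41, chr10:128549169-128549228, minus strand: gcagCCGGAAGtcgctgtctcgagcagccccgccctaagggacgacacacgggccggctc
The letters lie close to the start in Rps7 and at the far end of the stretch in Rpl41. A match describes the letters alone and shows no binding.

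Values are FPKM, fragment numbers scaled by the length of the transcript and the size of the library. Genes can be set side by side only roughly, because in M44175 the values varied with transcript length, as described below. Total FPKM ran from 312976 to 871630 at lactation, the highest in control M44175, and from 590437 to 1367560 at involution. One short RNA entry, Mir6236, held 3.05% to 44.0% of a library's total, all short RNA entries 11.8% to 48.4%, and milk protein genes 6.96% to 28.3%. Depth relative to the mean of the table, read from the spacing of low values, lay between 0.721 (control M44175) and 1.28 (M44174, a knockout) in the lactation table and between 0.484 (M43196) and 1.501 (M44440), both knockouts, in the involution table. All 8 luminal epithelial markers were above 0 in every library. Jak1 stood at 14.2, 14.03 and 6.18 FPKM in the lactation controls and 9.51, 10.2 and 11.2 FPKM in the knockouts, and at 24.3, 24.0 and 24.6 against 23.0, 22.2, 26.3 and 17.3 FPKM at involution. A value over the whole gene in whole tissue does not check the labels, so groups are named as labelled. In whole tissue, fewer cells of a type and less RNA per cell cannot be told apart.

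Ribosomal protein genes were among the most abundant transcripts of every gland. They made up 44 to 55 of the 100 highest entries of a library once short RNA was set aside. Of the 81 genes, 72 stood at 30 FPKM or more in all 13 libraries. The other 9 were Rpl10l, Rpl26, Rpl30, Rpl34, Rpl39l, Rpl3l, Rps15a, Rps27 and Rps4l, which are described below. At lactation the highest means over 6 libraries were those of Rpl41 (5481 FPKM), which encodes a very short peptide of the large subunit, Rps12 (2063 FPKM) and Rpl32 (1800 FPKM). At involution, over 7 libraries, they were Rpl41 (5980 FPKM), Rps12 (3922 FPKM) and Rpl38 (3805 FPKM), the last a protein known for its part in translating Hox mRNAs. These ranks at the top were not separated by the spread between libraries. At lactation Rpl41 ran from 2556 to 15455 FPKM, Rps12 from 1070.3 to 5098 FPKM and Rpl32 from 876 to 4743 FPKM.

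The set as a whole was high in some libraries and low in others, with a wide spread inside groups. The median gene stood at 405, 536 and 1327 FPKM in lactation controls M42186, M43768 and M44175, and at 609, 487 and 389 FPKM in knockouts M44174, M42734 and M43767. At lactation M44175 was therefore far above every other library, the next was a knockout, and the groups overlapped. At involution the median gene stood at 1040, 1020 and 1352 FPKM in controls M44448, M43768 and M43914, and at 1295, 798, 1117 and 1212 FPKM in knockouts M43196, M43767, M44176 and M44440. Here knockout M43767 was lowest, control M43914 highest, and the groups again overlapped. The summed FPKM of the large subunit was 1.35 to 1.42 times that of the small subunit in lactation libraries and 1.23 to 1.34 times in involution libraries. These ranges did not overlap and were set side by side without a test. The large subunit sum includes Rpl41, its highest gene, whose mean at involution was only 1.09 times that at lactation. That was the lowest such ratio of the 72 fuller genes, so the ranges do not show a shift of the large subunit genes as a whole.

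**Figure D1:**
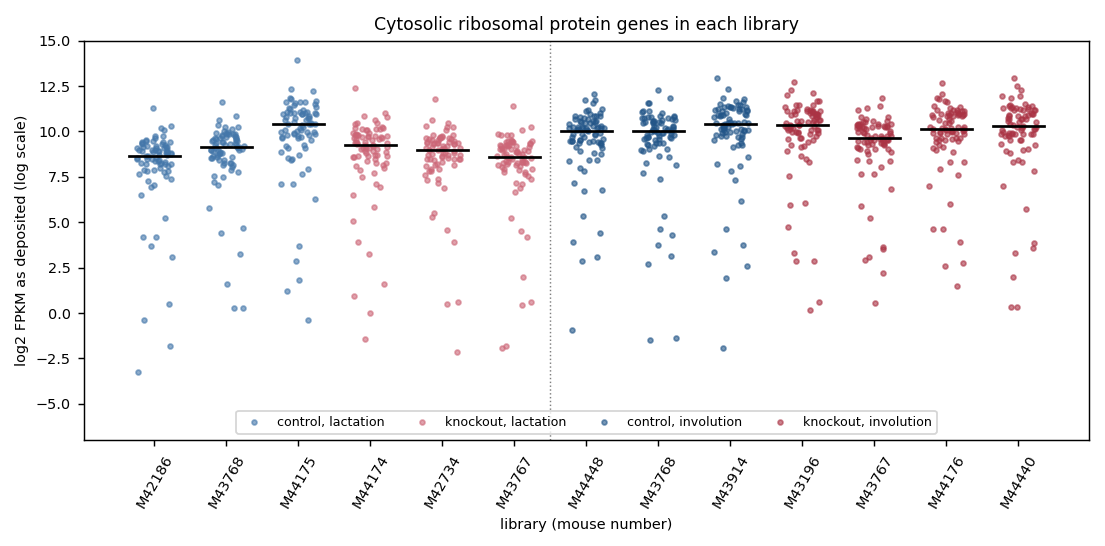
Deposited FPKM of the ribosomal protein genes in each of the 13 libraries, on a log2 scale, with 1 point for each gene above 0 and a bar at their median. Lactation control M44175 stands above the other 5 lactation libraries, and the 9 low genes form the tail under each cloud.

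As a share of all FPKM outside short RNA entries and milk protein genes, the set held 17.4%, 21.6% and 30.8% in the lactation controls M42186, M43768 and M44175 and 22.6%, 20.2% and 18.1% in the knockouts M44174, M42734 and M43767. The means were 23.3% ± 6.89 (SD, n = 3) and 20.3% ± 2.23 (SD, n = 3), and the control mean was 19.5% without M44175. At involution the shares were 18.0%, 16.9% and 21.3% in the controls and 20.2%, 16.8%, 20.1% and 25.2% in the knockouts (means 18.7% ± 2.26 and 20.6% ± 3.47, SD, n = 3 and 4). These groups overlapped at both stages. Set against the 77 genes of mitochondrial ribosomal proteins, which serve translation inside mitochondria, the 76 cytosolic genes that never fell under 1 FPKM stood higher by a mean log2 difference of 4.82 ± 0.308 (lactation controls), 4.65 ± 0.113 (lactation knockouts), 4.69 ± 0.125 (involution controls) and 4.67 ± 0.180 (involution knockouts, SD over libraries). The distance between both kinds of ribosomal protein genes thus differed by less than the spread between the lactation controls, the widest of these spreads. The lactation means differed by more than the SD of the lactation knockouts or of the involution controls. Without M44175 the lactation control mean was 4.68.

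In lactation control M44175 the rise was shared by nearly all of the set but was far from even. Of the 72 fuller genes, 70 had their highest lactation value in M44175, the exceptions being Rps26 (591 FPKM there and 739 FPKM in control M43768) and Rpl4 (470.3 and 487 FPKM). Among the other 5 lactation libraries, knockout M44174 was highest in 49 of the 72. The lowest lactation library was control M42186 for 36 genes, knockout M43767 for 34 and knockout M44174 for 2. Measured as the log2 difference of rescaled values from the median of the other lactation libraries, M44175 ran from -0.23 for Rps26 to 2.21 for Rpl9. Rpl9 stood at 459 and 652 FPKM in the other controls, 2809.9 FPKM in M44175 and 919, 538 and 517 FPKM in the knockouts. Next to Rpl9 stood Rpl13a (2.16), which also acts in silencing inflammatory mRNAs, Rps3 (2.14), which lines the mRNA entry channel, and Rpl41 (2.11). At the low end with Rps26 stood Rpl4 (0.06), Rpl28 (0.25) and Rpl29 (0.39).

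**Figure D2:**
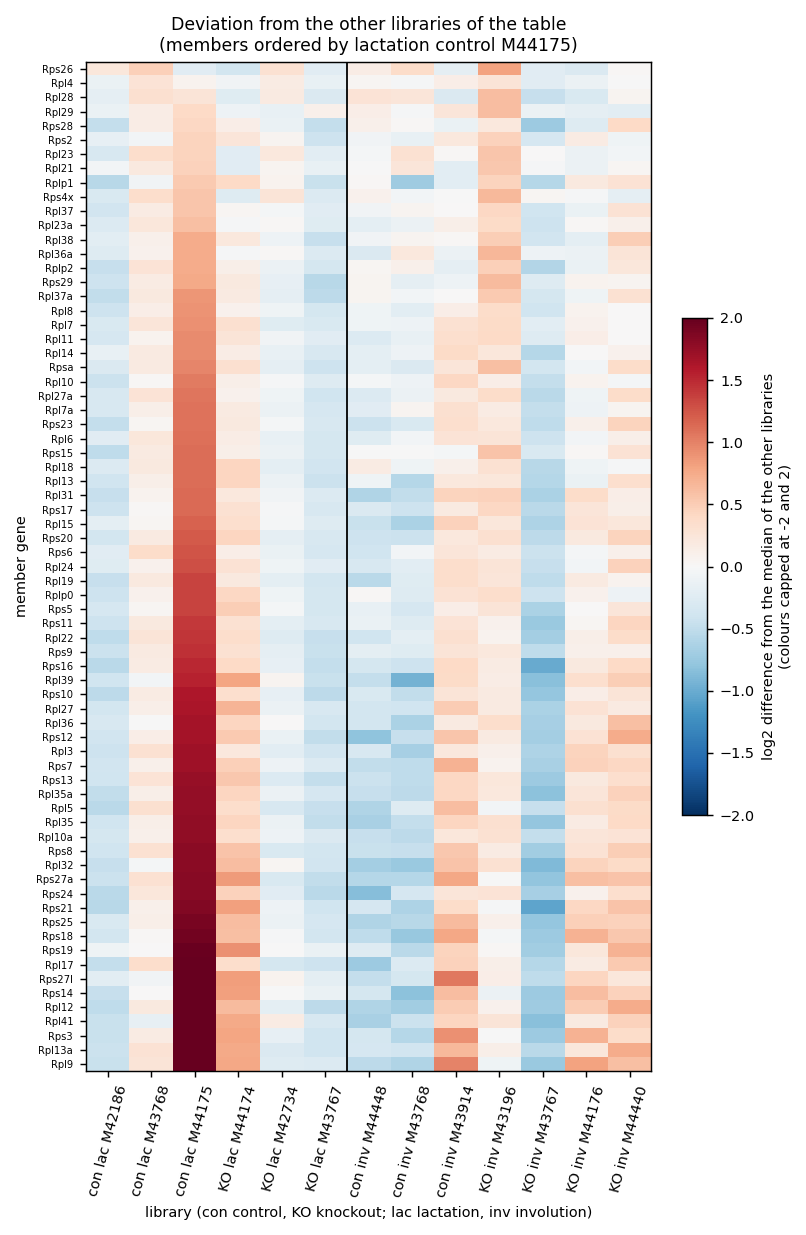
Log2 difference of 71 of the 72 fuller genes from the median of the other libraries of its table, for 13 libraries, with genes ordered by their value in lactation control M44175. The gradient from Rps26 to Rpl9 in M44175 recurs in lactation knockout M44174 and in involution libraries M43914, M44176 and M44440, and is turned over in M44448, M43768, M43196 and M43767 of involution. Opposite signs within a table arise in part because each library is set against the others of that table.

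The same order of genes came back in libraries of the other stage, which share no reference library with M44175. Across the 72 genes, the difference in M44175 correlated with that in involution control M43914 (Pearson r = 0.807), knockout M44176 (r = 0.791) and knockout M44440 (r = 0.686). It ran the other way in involution controls M44448 (r = -0.790) and M43768 (r = -0.761) and in knockouts M43196 (r = -0.784) and M43767 (r = -0.717). Each involution library was measured against the median of the others of its table. Where some libraries carry the order, others show it turned over in part through that reference, so the negative values are not a separate result. Both signs occurred in control and in knockout glands. Within lactation, knockout M44174 had the highest correlation (r = 0.862), although the lactation libraries enter one another's reference medians. The 586 other genes at 30 FPKM or more in every library gave 0.369, 0.256 and 0.400 for the first 3 libraries and -0.382, -0.322, 0.0758 and -0.268 for the next 4. These correlations run across genes of the same libraries, which share depth and base composition, and carry no test.

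Short transcripts were raised in M44175 beyond the ribosomal protein genes. Among 3147 other coding genes 1883 stood above 0 in that library, with a median log2 difference of 0.21, and 70 of 71 ribosomal protein genes, with a median of 1.35. Other genes with transcripts of up to 800 bases had a median of 1.09 (250 genes), those of 801 to 1200 bases 0.76 (419), those of 1201 to 2000 bases 0.31 (890), those of 2001 to 3000 bases -0.0073 (787) and longer ones -0.21 (801). Ribosomal protein genes of the first 3 of these classes had medians of 1.46 (39 genes), 1.08 (21) and 1.23 (10). They lay above the others of the same length, and by most in the class of 1201 to 2000 bases. Among the 72 fuller genes themselves, rank correlation of the M44175 difference with transcript length was -0.123 and with GC content 0.018, against -0.582 and -0.122 among 568 other genes. The relation to length was not confined to M44175. In knockout M44174 the rank correlation with length was -0.207 among the fuller genes and -0.377 among the others. In involution libraries M43914 and M44176 it was 0.069 and -0.079 among the fuller genes and -0.146 and -0.064 among the others. Genes with the pyrimidine run and a single start entry had a median of 1.13 (13 genes) and those without it 1.12 (32), and the ETS letters gave 1.13 (19) and 1.12 (26). M44175 also had the lowest relative depth of its table (0.721), close to that of control M43768 (0.751). Knockout M44174, whose order of genes was most like that of M44175, had the highest (1.28). The adipocyte markers of M44175, 7 genes that mark fat cells, summed to 2766 FPKM against 808 to 2236 FPKM in the other lactation libraries. This sum was not scaled to total FPKM, which was 871630 in M44175 and 312976 to 421592 in the others. All 7 markers had positive log2 differences, knockout minus control, at lactation (0.387 to 1.397), with M44175 among the controls. The sum therefore does not show that M44175 was the gland richest in fat cells. The part of depth, transcript length and fat cells in its ribosomal protein levels was not tested.

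**Figure D3:**
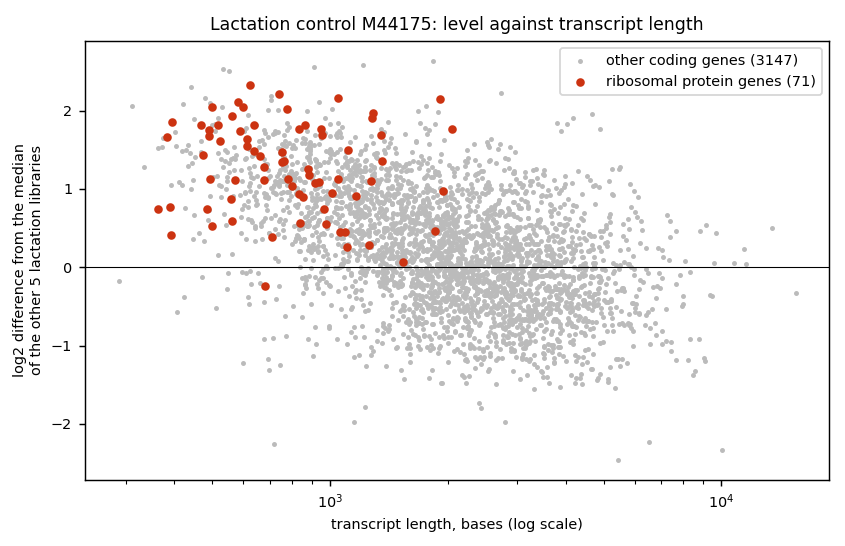
Log2 difference of lactation control M44175 from the median of the other 5 lactation libraries (vertical axis) against transcript length on a log scale, for 71 ribosomal protein genes and 3147 other coding genes. Values fall with length among the other genes, and 70 of 71 ribosomal protein genes lie above 0.

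At lactation, no ribosomal protein gene was found to differ between Jak1 knockout and control glands beyond the spread between libraries. Of 78 genes tested with limma, 0 passed an adjusted p of 0.05, where 0.0105% of all 9560 genes tested did, and 0 had an unadjusted p under 0.05, where 2.38% of all genes did. The lowest adjusted p was 0.998. So few genes passed anywhere in this comparison that 0 does not set the ribosomal protein genes apart. No gene of the 81 had groups that did not overlap, against 2.89% of all genes tested with knockouts higher and 3.17% with knockouts lower. The median log2 difference, knockout minus control, was -0.34 over the set (4 positive, 74 negative) and 0.01 over all genes tested (51.2% positive). It was -0.32 in the large and -0.37 in the small subunit. Without control M44175 the median was 0.09, with 58 positive and 19 negative, and 56 of 77 signs turned. The negative median thus rested on that library. Scaled to the total outside short RNA and milk protein genes, 15 were positive and 63 negative (median -0.13, with all genes at 0.16, a difference of -0.29), and with quantile normalization 21 and 57 (median -0.10).

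**Figure D4:**
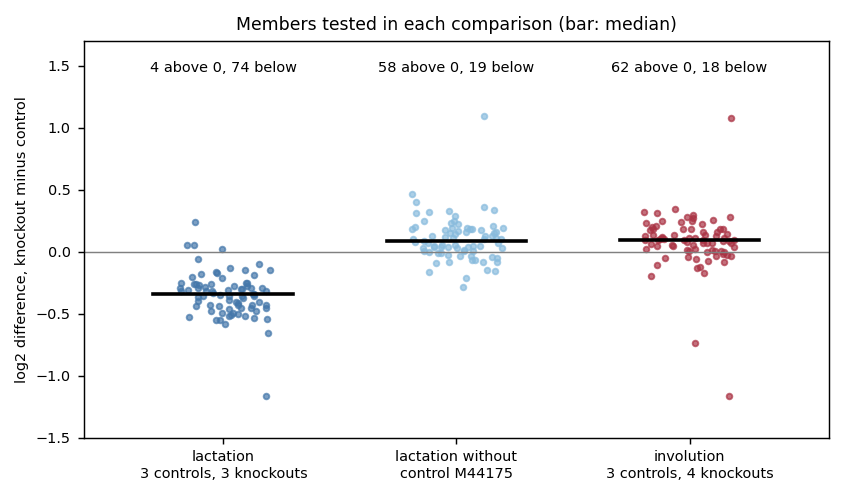
Log2 difference, knockout minus control, of each ribosomal protein gene tested, with a bar at the median, at lactation with and without control M44175 and at involution. With M44175 there are 4 genes above 0 and 74 below, without it 58 above and 19 below, and at involution 62 above and 18 below.

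The stalk proteins P0, P1 and P2 form the arm of the large subunit that recruits elongation factors. Rplp0 stood at 501, 695 and 1864 FPKM in the controls M42186, M43768 and M44175 and at 862, 647 and 519.9 FPKM in the knockouts M44174, M42734 and M43767. M44175 was again far above the rest, and the other 5 libraries overlapped (log2 difference -0.32 ± 0.49, SE, adjusted p = 0.998 with limma; 0.18 without M44175). Rplp1 was more even, at 849.6, 1231 and 1977 FPKM against 1617, 1284 and 907 FPKM (0.02 ± 0.41, adjusted p = 0.999 with limma). Its sign turned on the deposited scale (-0.05), with array weights (-0.05), and without M42186 or M44174. Rplp2 stood at 555, 882 and 1363 FPKM against 788, 721 and 594 FPKM, with overlapping groups.

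In the abundant large subunit genes with the most negative differences, the same control stood far above the rest. Rpl3, a protein near the peptidyl transferase centre, stood at 239, 349 and 1021 FPKM in controls and 327, 280.1 and 240.1 FPKM in knockouts (log2 difference -0.58 ± 0.49, adjusted p = 0.998 with limma; -0.03 without M44175). Rpl17, near the exit tunnel, stood at 583, 848 and 3014 FPKM against 837, 658 and 607 FPKM (-0.65 ± 0.56, adjusted p = 0.998 with limma; -0.0075 without M44175). For Rpl13a the values were 364, 508 and 2074 FPKM against 697, 411 and 368 FPKM (-0.55 ± 0.61, adjusted p = 0.998 with limma; 0.15 without M44175). In each of these genes the controls other than M44175 lay within or close to the knockouts' range. Rpl5 and Rpl11, which form the particle with 5S ribosomal RNA that can also bind MDM2, stood at 204, 308 and 933 FPKM against 311, 243 and 215 FPKM, and at 647, 846 and 1739 FPKM against 965, 802 and 693 FPKM. Rpl10, added late and needed for subunits to join, stood at 811, 1126 and 2546 FPKM against 1192, 1101 and 902 FPKM. The lymphocyte-linked Rpl22 was lower throughout, at 37.0, 54.7 and 139 FPKM against 57.9, 45.0 and 37.7 FPKM. All 4 had M44175 highest and overlapping groups.

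In the small subunit, Rps6, the substrate of S6 kinase, stood at 353, 505 and 1045 FPKM in controls and 425, 388 and 323 FPKM in knockouts. Only M44175 and, by less, M43768 exceeded the knockouts. The log2 difference was -0.53 ± 0.40 (adjusted p = 0.998 with limma; -0.15 without M44175). Rps3 stood at 134, 189 and 832 FPKM against 289.7, 166 and 137 FPKM. Rpsa, also known as the laminin receptor, stood at 224, 283 and 549.6 FPKM against 309, 248 and 204 FPKM. Rps27a, whose product is made as a fusion with ubiquitin, stood at 411, 572 and 1815 FPKM against 823, 456 and 387 FPKM. The groups of all 3 genes overlapped. Within groups, the 72 fuller genes varied more than the 586 other genes at 30 FPKM or more. Their median SD on the log2 scale was 0.780 against 0.518 in the lactation controls (0.288 against 0.145 without M44175) and 0.280 against 0.227 in the knockouts.

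At day 2 of involution, too, no ribosomal protein gene was found to differ between knockout and control glands beyond the spread between libraries. With limma, 0 of 80 genes tested passed an adjusted p of 0.05, where 0.0719% of all 12509 genes tested did, and 0 had an unadjusted p under 0.05, where 6.84% of all did. The lowest adjusted p was 0.787, that of Rpl26. Few genes passed at all, so 0 passing does not set these genes apart here either. In 0 of the 81 genes did the groups not overlap, against 2.67% of all genes tested with knockouts higher and 4.42% with knockouts lower. The median log2 difference was 0.09 over the set (62 positive, 18 negative) and 0.01 over all genes tested (51.8% positive). Leaving out 1 library at a time moved it from 0.0040 (without control M43768, 41 positive and 39 negative) to 0.26 (without knockout M43767, 75 positive and 5 negative). Knockout M43767 was the lowest library for 57 of the 72 fuller genes, while the highest was knockout M43196 for 28, control M43914 for 25, knockout M44440 for 18 and knockout M44176 for 1.

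Of the stalk proteins at involution, Rplp1 stood at 3388, 2219 and 3135 FPKM in controls M44448, M43768 and M43914 and at 4392, 2344, 3688 and 3928 FPKM in knockouts M43196, M43767, M44176 and M44440. The highest 3 values were knockouts, but M43767 lay inside the controls' range (log2 difference 0.31 ± 0.32, adjusted p = 0.974 with limma). Rplp0 stood at 1179, 1034 and 1447 FPKM against 1471, 894, 1225 and 1122 FPKM (-0.03 ± 0.25, adjusted p = 0.998 with limma), and its sign turned without control M43914 (0.08) or knockout M43767 (0.09). Rplp2 stood at 2055, 2184 and 1893 FPKM against 2778, 1382, 1913 and 2324 FPKM. The groups of all 3 overlapped.

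Rpl36 had the highest positive difference among the abundant genes at involution. It stood at 1474, 1269.7 and 1956 FPKM in controls and 2163, 1188, 1925 and 2557 FPKM in knockouts (log2 difference 0.32 ± 0.32, adjusted p = 0.974 with limma). Rpl10 had the lowest, at 1834, 1815 and 2527 FPKM against 2025, 1349, 1949 and 1854 FPKM (-0.17 ± 0.26, adjusted p = 0.992 with limma). Rps6 stood at 713, 928 and 1099 FPKM against 1017, 687, 913 and 977 FPKM (0.0083 ± 0.24, adjusted p = 0.998 with limma). The difference in Rps6 was near 0, and its sign turned under other scalings and without single libraries. Rps27, Rpl26 and Rps4l at the negative end of this comparison, and Rpl39l and Rpl3l at the positive end, have low FPKM and are taken up below. Median SDs on the log2 scale at involution were 0.287 for the set and 0.287 for other genes in controls, and 0.370 and 0.315 in knockouts.

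In none of these genes was the knockout effect at involution found to differ from that at lactation. In the joint limma fit of 13 libraries, 0 of 80 genes passed an adjusted p of 0.05, where 0.0789% of all 12667 genes tested did, and 0 had an unadjusted p under 0.05, where 3.35% did. The lowest adjusted p was 0.999. Here too few genes passed at all, so 0 passing does not set these genes apart. The median of the difference, involution minus lactation, was 0.43 (78 positive, 2 negative) and 0.0012 (41 positive, 39 negative) without lactation control M44175. It was 0.25 (68 and 12) with scaling to the total, and 0.16 (62 and 18) with quantile normalization. Set side by side without a test, because the tables may have been normalized separately, the mean over involution libraries was 1.09 (Rpl41) to 2.90 (Rpl22) times that over lactation libraries for the 72 fuller genes, with a median of 1.85. In 15 of the 81 genes every involution library exceeded every lactation library, and in 66 once M44175 was set aside. The same count over all genes is not given here. The median of all rows at 1 FPKM or more also differed between the stages. It was 4.53 to 5.54 FPKM in lactation libraries and 8.39 to 9.13 FPKM in involution libraries. The ratios and counts are thus not shown to be particular to ribosomal protein genes.

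Of the 9 low genes, some share sequence with more abundant rows, and others are paralogues known from other tissues. GENCODE transcripts (release M21) were searched for the row that shares most words of 31 letters with each of the 9 low genes. Rps27 shared 98.7% of its words with Rps27rt, Rpl26 69.8% with Gm15772, Rpl30 53.1% with Gm12191 and Rpl34 44.1% with Rpl34-ps1. These other rows fell outside the naming rule and were abundant. Rps27rt stood at 945 to 5883 FPKM, Gm15772 at 658 to 2618 FPKM, Gm12191 at 526 to 1745 FPKM and Rpl34-ps1 at 509 to 3481 FPKM, within the range of ordinary ribosomal protein genes. The named row held 0.0548% to 3.33% of the sum of both for Rps27, 0% to 1.91% for Rpl26, 0.565% to 2.17% for Rpl30 and 1.35% to 7.12% for Rpl34. No source used here states how reads that fit both rows were assigned, so the levels and differences of these 4 genes are uncertain. The 72 fuller genes were not searched. Rps15a, at 18.4 to 77.1 FPKM, shared 40.8% of its words with Rps15a-ps6, which was lower still at 2.00 to 23.9 FPKM.

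**Figure D5:**
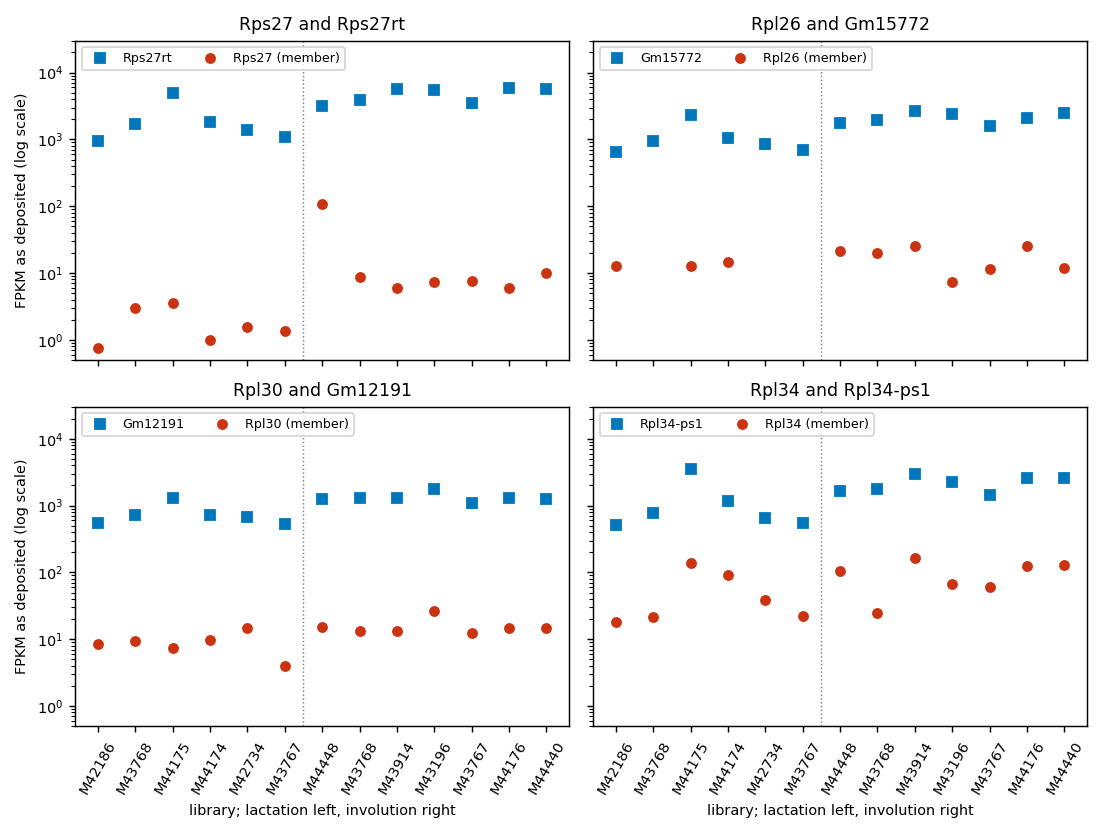
Deposited FPKM on a log scale of Rps27, Rpl26, Rpl30 and Rpl34 (circles) and of the row most similar in sequence to each (squares) in 13 libraries, where values of 0 are not drawn (Rpl26 in 3 lactation libraries). In all 4 pairs the similar row stands above the named gene in every library, and Rps27 is raised in involution control M44448 alone.

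None of these 4 genes passed the test at either stage. At involution Rps27 stood at 108 FPKM in control M44448 and at 8.73 and 6.04 FPKM in the other controls, against 7.33, 7.53, 5.99 and 9.89 FPKM in knockouts. The log2 difference of -1.17 ± 0.85 (adjusted p = 0.940 with limma) became 0.09 without M44448. Rpl26, a protein that also binds p53 mRNA, was listed at 0 in control M43768 and knockouts M42734 and M43767 of lactation, and stood at 12.8, 12.9 and 14.8 FPKM in M42186, M44175 and M44174 (log2 difference -1.17 ± 1.32, adjusted p = 0.998 with limma). Zeros fell in both groups. At involution Rpl26 stood at 21.6, 20.05 and 25.1 FPKM in controls against 7.34, 11.4, 24.98 and 12.0 FPKM in knockouts (-0.74 ± 0.34, adjusted p = 0.787 with limma). Here 3 of 4 knockouts lay below all controls and M44176 among them, while Gm15772 stood at 1747, 1958 and 2618 FPKM against 2413, 1575, 2109 and 2486 FPKM. Rpl30 (log2 difference at lactation 0.05 ± 0.40) and Rpl34 (0.24 ± 0.76, both with an adjusted p of 0.998 with limma) changed sign without single libraries.

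Rps27l, a paralogue of Rps27 that p53 can induce, was abundant in this tissue, at 299, 344 and 1589 FPKM in lactation controls, 610.3, 357 and 299.6 FPKM in lactation knockouts, 445, 497 and 1163 FPKM in involution controls and 611, 428, 737 and 634 FPKM in involution knockouts. M44175 and M43914 held its highest values, and the groups overlapped at both stages. Rpl10l, a retrogene of Rpl10 used in the testis, was listed at 0 in all 13 libraries. Rpl39l, the testis paralogue of the exit tunnel protein Rpl39, was listed at 0 in lactation libraries M43768, M44175 and M42734 and reached at most 3.76 FPKM, while Rpl39 ran from 463 to 2447 FPKM. Its log2 difference at involution was 0.35 ± 0.43 (adjusted p = 0.974 with limma). Rps4l stood at 1.19 to 10.4 FPKM beside 506 to 1603 FPKM of Rps4x, and differed by 0.05 ± 0.19 at lactation and -0.19 ± 0.28 at involution (adjusted p = 0.998 and 0.992 with limma).

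Rpl3l replaces Rpl3 in striated muscle, and at involution it was highest in the glands with most muscle transcript. It stood at 7.32, 0.385 and 0.262 FPKM in involution controls M44448, M43768 and M43914 and at 1.102, 4.58, 25.1 and 1.245 FPKM in knockouts M43196, M43767, M44176 and M44440. The log2 difference was 1.08 ± 1.00 (adjusted p = 0.965 with limma), with overlapping groups. Acta1, Ckm, Mylpf, Tnnt3, Myh4 and Mb, 6 markers of skeletal muscle, summed to 1195, 127 and 81.2 FPKM in the same controls and 44.4, 588, 4522 and 77.1 FPKM in the knockouts. The 3 libraries with most muscle transcript, M44176, M44448 and M43767, were also the 3 with most Rpl3l. Among the other 4 the orders differed, M43196 having the lowest muscle sum but more Rpl3l than M43768 and M43914. At lactation the highest values of both were in knockout M44174 (3.00 FPKM of Rpl3l, 890 FPKM summed) and the next in control M43768 (1.199 and 206 FPKM), while 1 to 2 of the 6 markers were at 0 in M42186, M42734 and M43767. The part of muscle tissue in the Rpl3l values was not tested.

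Other genes of the translation machinery were compared by lists, with all libraries in the fit, and none had a gene past an adjusted p of 0.05 with limma at either stage. For TOP mRNA genes outside the set the median log2 difference was -0.22 at lactation (2 of 18 positive) and -0.01 at involution (7 of 18). The gene with the largest size of difference was Naca, a chaperone of nascent chains, at lactation (-0.51 ± 0.47) and the elongation factor Eef2 at involution (-0.36 ± 0.26). Mitochondrial ribosomal proteins had medians of -0.14 (13 of 77 positive) and 0.11 (63 of 77), which lay on the same sides of 0 as those of the cytosolic set, with Mrpl41 (-0.63 ± 0.48) and Mrps35 (0.39 ± 0.16) the farthest from 0. Ribosome biogenesis factors were near 0 at both stages (medians -0.0082 with 18 of 38 positive, and 0.01 with 23 of 39), with Taf1d, a factor of RNA polymerase I (-0.56 ± 0.30), and Nop56, of the box C/D particles (0.30 ± 0.22), the farthest. Initiation factors had medians of -0.05 (21 of 51) and -0.02 (20 of 51), led by Eif4e3 at both stages (0.59 ± 0.17 and 0.39 ± 0.28). Regulators of ribosomal protein output in the mTOR and MYC pathways had medians of 0.05 (10 of 18) and -0.09 (7 of 19), led by the mTORC1 inhibitors Ddit4 (-0.57 ± 0.28) and Sesn1 (0.40 ± 0.17). Pseudogene and paralogue rows of ribosomal proteins outside the rule had medians of -0.34 (1 of 8) and 0.08 (7 of 9), led by Rps15a-ps6 (-0.83 ± 0.65) and Rpl22l1 (0.73 ± 0.53). Errors are SE, and adjusted p ran from 0.701 to 0.998 for these named genes.

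Markers of other cells also varied between libraries, and none passed an adjusted p of 0.05 with limma at either stage. All 7 adipocyte markers were positive at both stages (median log2 difference 0.77 and 0.69), and so were all 6 fibroblast markers (0.73 and 0.90). Of all genes tested, 51.2% and 51.8% were positive. The lowest adjusted p with limma was 0.644 and 0.918 for adipocyte markers, and 0.998 and 0.611 for fibroblast markers. The marker nearest the threshold was Hba-a2, of erythrocytes, at lactation (log2 difference -3.45 ± 0.40, SE, adjusted p = 0.127 with limma). Of the erythrocyte markers tested at lactation, 4 were positive and 2 negative. Summed fibroblast markers ran from 43.9 to 133 FPKM in lactation controls and 127 to 141 FPKM in knockouts, and from 175 to 405 FPKM and 306 to 803 FPKM at involution, with no marker at 0. Adipocyte markers summed to 808 to 2766 FPKM in lactation controls and 1468 to 2236 FPKM in knockouts, so these groups overlapped. At involution they summed to 4212 to 8306 FPKM in controls and 4575 to 16501 FPKM in knockouts, again with no marker at 0. Luminal markers summed to 588 to 659 FPKM and 511 to 592 FPKM at lactation and to 1658 to 2232 FPKM and 1553 to 2696 FPKM at involution. Basal epithelial markers summed to 218 to 383 FPKM in involution controls and 405 to 509 FPKM in knockouts, so these sums did not overlap. They overlapped at lactation (112 to 284 FPKM and 116 to 224 FPKM). No sum was tested, and the lowest adjusted p of a basal marker at involution was 0.787 with limma. T cell markers summed to 37.1 FPKM in lactation control M43768 and to 0.813 to 2.90 FPKM in the other lactation libraries, with up to 2 of 6 at 0. The part of cell makeup in the ribosomal protein levels was not tested.

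The genes outside the set whose log2 values, centred within each table, were most like the set's mean across the 13 libraries were Gm15772 (Pearson r = 0.987), Rps3a1 (0.987), Fau (0.981), Rpl34-ps1 (0.980), Mrpl14 (0.976), Supt4a (0.974), Eif3i (0.973), Eef1b2 (0.973), Gnb2l1 (0.973) and Serf2 (0.971), of 9386 genes ranked. Without M44175 the same genes had r of 0.927 (Serf2) to 0.969 (Gm15772). The naming rule left out Rps3a1, which encodes a small subunit protein, Fau, which encodes ribosomal protein S30 as a fusion, and Gnb2l1, which encodes the small subunit protein RACK1. Rps3a1 stood at 501, 685 and 1766 FPKM in the lactation controls and 705, 559.8 and 457 FPKM in the knockouts, and Fau at 394, 566 and 1885 FPKM against 675, 501 and 405 FPKM. Both had their highest lactation value in M44175, as 70 of the 72 fuller genes of the set did.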

How the data were processed

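RNA of 13 mammary gland libraries was measured, and the authors deposited 1 table of FPKM per stage. Reads went through CASAVA, cutadapt and TopHat on build mm9, per the submitters' processing notes. Versions, the program behind the FPKM, its annotation and scaling, and read totals are not stated in the sources used here. Libraries of a group carry different mouse numbers, so p-values measure the spread between mice.

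Within each table FPKM were divided by median-of-ratios factors (0.954 to 1.12 at lactation, 0.980 to 1.02 at involution) and turned into log2(rescaled FPKM + 1), a scale that understates differences of low genes. Tests covered genes that reached 1 FPKM in 3 or more libraries and were made with limma 3.58.1 (eBayes with trend, two-sided, no covariates) in R 4.3.3, p-values being adjusted by Benjamini-Hochberg across every gene tested, threshold 0.05. The difference between stages was a contrast in a joint fit of 4 groups. Levels are printed as deposited. Exact zeros can be failed estimates. Relative depth was estimated from the spacing of values under 0.3 FPKM in the deposited FPKM, and gives no counting interval. Scripts were tested on simulated data.

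The genes and lists were chosen with earlier results of these data known. Genes were named where they passed the threshold (0 did), where they were among the 4 highest or 4 lowest log2 differences of a table, where they were listed at 0, where they had the 3 highest or lowest means, or for 20 fixed roles. Genes picked for their order in M44175 or for shared sequence, and Rps3a1, were chosen after their values were seen. Promoters came from RefSeq (GRCm38.p6), transcript lengths and words from GENCODE M21. Alternatives were 4 scalings, a pseudocount of 0.1, no filter or a minimum of 5 FPKM, robust or array-weighted variances, and leaving out each library. The search for shared words was added after seeing the data. Values of some single genes are not reported here.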

Additional observations from a re-analysis of the deposited data

Results flagged for a closer look

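In the 4 involution knockout libraries, 9 of 82 groups of values had a highest or lowest library that lay far from the other 3 relative to the width of the group (Dixon ratio above its 95% critical value). Chance flags about 1 in 20 groups, and genes that move together are flagged together. Knockout M43767 was low for Rpl10a (656 FPKM), Rpl15 (200.3 FPKM), Rpl32 (1327 FPKM) and Rps10 (875 FPKM), and it was the lowest involution library for 57 of the 72 fuller genes. Knockout M43196 was high for Rpl21 (487 FPKM), Rpl23 (1099.5 FPKM), Rpl29 (774 FPKM) and Rps4x (1603 FPKM), and it had the lowest relative depth of its table (0.484) and the highest share of Mir6236 (44.0%). Knockout M44176 was high for Rpl3l (25.1 FPKM) and for the sum of skeletal muscle markers (4522 FPKM). Groups of 3 libraries were not examined in this way.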

How the results depend on the processing

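With limma, no ribosomal protein gene passed an adjusted p of 0.05 at lactation, at involution or in the difference between stages under any alternative run, and the count stayed at 0 when each library was left out (0 to 0). The lowest adjusted p over the settings with all libraries was 0.265 at lactation and 0.520 at involution, both with array weights. The median log2 difference without 1 library was -0.67 to 0.09 (lactation) and 0.0040 to 0.26 (involution). With all rows as denominator the share held by the set was 12.6% and 12.0% (lactation controls and knockouts) and 11.8% and 13.2% (involution). Without short RNA only it was 16.6% and 14.9% (lactation) and 15.2% and 17.6% (involution). By construction these denominators hold more rows.

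Signs of single genes turned as follows, and the cause was not tested. At lactation, array weights gave 0.052 for Rpl26, -0.050 for Rplp1 and -0.23 for Rpl30, the deposited scale -0.045 for Rplp1 and -0.0035 for Rpl30, and quantile normalization -0.0071 for Rps4l and 0.024 for Rplp0. At involution, array weights gave 0.0047 for Rps4l, 0.0080 for Rplp0 and -0.044 for Rps6, and Rps6 was -0.017 as deposited, -0.029 with quantiles and -0.0017 with the upper quartile. Leaving out 1 library at lactation gave -1.003 to 0.15 for Rpl13a, -0.22 to 0.28 for Rplp1, -0.31 to 0.50 for Rpl30, -0.055 to 0.19 for Rps4l, -0.29 to 1.097 for Rpl34 and -0.67 to 0.18 for Rplp0. At involution it gave -1.91 to 0.091 for Rps27, -0.36 to 0.032 for Rps4l, -0.15 to 0.090 for Rplp0 and -0.14 to 0.14 for Rps6. No paired analysis was possible within a stage, because the groups compared share no mouse number. Across stages 2 mouse numbers recur (1 control, 1 knockout), and a replicate block on mouse number in the joint limma fit, chosen after seeing the data, called 0 members (lowest adjusted p 0.717, median difference 0.33, estimated correlation 0.697). Over all 12667 genes it called 3 positive and 17 negative against 10 without the block. The set's mean had a pooled SD between libraries of 0.580 (log2) at lactation and 0.279 at involution, wider than the median differences of -0.34 and 0.09.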

Other observations

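Rpl22l1, the paralogue of Rpl22 outside the naming rule, stood at 75.4, 129 and 666 FPKM in the lactation controls M42186, M43768 and M44175 and at 183, 103 and 89.0 FPKM in the knockouts M44174, M42734 and M43767. Rpl22l1 stood above Rpl22, which ran from 37.0 to 139 FPKM, in each of the 6 lactation libraries. This order did not hold throughout involution. Rpl22l1 was below Rpl22 in controls M44448 (87.3 and 142 FPKM) and M43768 (71.8 and 169 FPKM). It was also below in knockouts M43196 (171 and 186 FPKM) and M43767 (88.6 and 115 FPKM), and above in M43914, M44176 and M44440. Tpt1, a TOP mRNA gene that encodes no ribosomal protein, stood at 1919, 2996 and 6044 FPKM against 2899.9, 2844 and 2273 FPKM in the lactation libraries. In Rpl22l1 and Tpt1 M44175 was the highest lactation library, and the lactation groups overlapped.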
